A study of Mus musculus with 4 samples.

Results

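The genes described here are the rows of the deposited expression table that lie on chromosome 2 with a start site between 174000000 and 178500000, the stretch around the zinc finger gene Zfp970. They number 59 of the 21958 genes of the table, of which 46 are zinc finger genes or predicted genes with a Gm symbol and 13 are other genes. The stretch was chosen by measured values of this same contrast, since Zfp970 and Gm14403 were low in OxtrTg, so the differences between genotypes below are a description and carry no test. The edges were set by position alone. Npepl1, the last gene before the stretch, had 1765 and 1519 counts in OxtrTg replicates 3 and 4 and 1794 and 1753 counts in WT replicates 5 and 6. Gnas, the first gene inside, had 368, 385, 327 and 332 counts in the same order. At the far edge Cdh26, the last gene inside, had 1, 2, 7 and 0 counts, and Cdh4, the first gene outside, had 26, 128, 90 and 50.

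RNA was sequenced from ovaries of mice that carry a transgene for the oxytocin receptor gene Oxtr (OxtrTg, with replicates numbered 3 and 4) and of wild types (WT, with replicates numbered 5 and 6). The females were in diestrus, a quiet phase of the estrous cycle, per the series' design text. The promoter of the transgene, the strain and the age of the mice, and whether each library is 1 animal, were not stated. The question of the study was which genes differ in OxtrTg ovaries, and the chromosome 2 genes are read out of that comparison.

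Zinc finger proteins of the C2H2 kind bind DNA through a row of repeated fingers, each held together by a zinc ion. Many of them in mammals carry a KRAB domain, which recruits the co-repressor Trim28 and the histone methyltransferase Setdb1 and so silences chromatin, transposable elements above all. Such genes arose by repeated duplication and lie in clusters of near-identical copies, and the cluster at the end of mouse chromosome 2 is among those that expanded in the mouse lineage.

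The run of zinc finger and Gm genes was nearly unbroken. From Gm14444 to Zfp931 the table lists 45 consecutive genes over 2868236 bases (chromosome 2, 174852034 to 177720269 in the deposited table), and 2210418O10Rik is the only gene among them that has neither kind of symbol. Of the 46 zinc finger and Gm genes, 22 are on the plus strand and 24 on the minus strand. In GENCODE release M21 coding sequences, 37 of the 46 encode the C2H2 pattern (C, 2 residues, C, 12 residues, H, 3 to 5 residues, H), 2 to 25 times with a median of 13. None of the 13 other genes encodes it. Gm14295 has the most patterns, 25. Zfp970 has 14, Gm14403 has 9, Gm14418 has 8 and Gm14406 has 10.

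The members resemble each other along their sequence, which bears on how reads can be told apart. The first 63 coding bases, where KRAB zinc finger genes usually begin their KRAB domain, are within 6 bases of those of Zfp970 in 35 of the 46 zinc finger and Gm genes. They are shown for Gm14418, Zfp970 and Gm14403, which were low in OxtrTg, for Gm14406, which follows them and was hardly detected in either genotype, and for the next gene on each side (Gm14412 and Gm14322), as GENCODE M21 gives them from the start codon. Capitals mark bases that differ from Zfp970.
Gm14412: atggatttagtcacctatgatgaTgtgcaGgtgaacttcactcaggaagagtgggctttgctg
Gm14418: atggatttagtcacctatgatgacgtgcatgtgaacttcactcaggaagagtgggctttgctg
Zfp970: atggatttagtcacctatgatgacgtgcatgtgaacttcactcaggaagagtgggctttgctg
Gm14403: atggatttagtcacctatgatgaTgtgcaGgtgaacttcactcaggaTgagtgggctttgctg
Gm14406: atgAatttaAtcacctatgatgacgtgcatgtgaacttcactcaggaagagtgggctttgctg
Gm14322: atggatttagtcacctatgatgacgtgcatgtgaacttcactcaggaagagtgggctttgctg
Gm14418, Zfp970 and Gm14322 do not differ in these bases. Gm14412 and Gm14406 differ from Zfp970 at 2 bases each, and Gm14403 at 3.

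Coding sequences were aligned in the 666 pairs among the 37 members with a finger pattern. Over bases aligned without a gap they were 70.3% to 100% identical, with a median of 91.5%. In 30 pairs every aligned base was the same. Gaps were not counted, so a short gene can be spread over a long one. The lowest value was that of Zfp831 with Gm14295. Zfp831 has 4884 coding bases and shares no 50-base window with another gene, so its identities say little of likeness. Gm14418, which was at 0 in OxtrTg, and Gm14322, which was not, have the same base at 1072 of 1074 coding positions. The differences are C350T and A928G, counted from the start codon with the Gm14418 base first. They are shown with 24 bases on each side, the differing base in capitals, because only reads over such positions or over unshared untranslated bases tell these genes apart.
Gm14418 bases 326 to 374: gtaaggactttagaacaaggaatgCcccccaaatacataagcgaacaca
Gm14322 bases 326 to 374: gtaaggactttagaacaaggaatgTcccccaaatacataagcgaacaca
Gm14418 bases 904 to 952: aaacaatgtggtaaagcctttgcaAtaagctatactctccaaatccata
Gm14322 bases 904 to 952: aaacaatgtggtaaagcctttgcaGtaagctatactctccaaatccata
Gm14406 is nearest to Gm14444, at the other end of the run, with the same base at 1277 of 1278 positions (A524G, Gm14406 base first). Zfp970 and Gm14403 have no such twin. By identity of aligned bases Zfp970 is nearest to Zfp973 and Zfp965 (97.5% over 897 aligned bases), and Gm14403 to Gm14295 (95.3%). The 897 bases cover only part of the 1566 coding bases of Zfp970, since Zfp973 and Zfp965 have 954. Zfp966, Zfp967, Zfp968 and Zfp969 were each 95.6% identical to Zfp970 over 1398 aligned bases.

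The promoters resemble each other as well. RefSeq windows of 300 bases (250 before to 50 after the start site, GRCm38.p6) were found for 30 of the 46 zinc finger and Gm genes. Of these, 27 aligned with that of Zfp970 over at least 50% of the window, itself included, and the other 26 were 77.4% to 99.6% identical to it, with a median of 95.5%. The 250 bases before the start site are shown for Zfp970, for Gm14403, which like it was near 0 in OxtrTg, and for Gm14322 and Gm14325, which lie just beyond them and were measured in every library. Capitals in Zfp970 mark the motif GCCAATCA, and capitals in the others mark bases that differ from Zfp970.
Zfp970, chr2:177464492-177464741, plus strand: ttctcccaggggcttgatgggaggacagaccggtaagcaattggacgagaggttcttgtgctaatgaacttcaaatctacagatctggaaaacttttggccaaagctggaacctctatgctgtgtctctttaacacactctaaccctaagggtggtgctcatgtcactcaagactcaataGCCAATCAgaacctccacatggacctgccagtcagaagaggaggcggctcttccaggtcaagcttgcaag
Gm14403, chr2:177497976-177498225, plus strand: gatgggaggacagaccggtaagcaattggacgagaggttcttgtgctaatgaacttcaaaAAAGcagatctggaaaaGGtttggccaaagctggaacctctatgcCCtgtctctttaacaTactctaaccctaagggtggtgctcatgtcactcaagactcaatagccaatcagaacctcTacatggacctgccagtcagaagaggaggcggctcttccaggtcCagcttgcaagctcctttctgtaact
Gm14322, chr2:177759038-177759287, plus strand: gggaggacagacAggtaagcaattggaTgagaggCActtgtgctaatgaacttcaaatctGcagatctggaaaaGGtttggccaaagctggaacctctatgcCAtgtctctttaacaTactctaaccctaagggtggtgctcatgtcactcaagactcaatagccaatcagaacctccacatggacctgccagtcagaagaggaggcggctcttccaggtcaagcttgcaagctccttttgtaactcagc
Gm14325, chr2:177840337-177840586, minus strand: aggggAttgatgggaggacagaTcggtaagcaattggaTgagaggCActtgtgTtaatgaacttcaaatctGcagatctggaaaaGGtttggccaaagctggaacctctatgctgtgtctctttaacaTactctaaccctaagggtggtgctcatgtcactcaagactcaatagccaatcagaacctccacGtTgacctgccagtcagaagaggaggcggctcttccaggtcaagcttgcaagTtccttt
In these bases Gm14403 differs from Zfp970 at 11 aligned positions, Gm14322 at 10 and Gm14325 at 13. All of them hold GCCAATCA, which ends 62 bases before the RefSeq start site in Zfp970, 77 in Gm14403, 80 in Gm14322 and 69 in Gm14325. Searched on both strands, GCCAATCA was found in 25 of the 30 zinc finger and Gm promoters (83.3%) and in 4.02% of all 27025 promoters of the reference. CCAAT, which is part of it, was found in 93.3% against 37.9%. TATAAA was found in 3.33% against 14.2%, and GGGCGG in 0 of 30 against 35.9%. These are matches of letters and not measured binding sites.

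Each library held 15229810 to 16517764 counts. Levels are CPM, counts scaled to library size with TMM factors, and a gene listed at 0 may hold as many as 3 counts, or 0.178 to 0.2 CPM depending on the library. The level of Oxtr, the gene of the transgene, was 109 and 161 CPM in OxtrTg against 29.2 and 55.5 CPM in WT, the order that the labels give. All 13 ovary markers were detected, with summed levels of 3261 and 3905 CPM in OxtrTg and 2862 and 7608 CPM in WT. The RNA extraction protocol of the labels names white adipose tissue, and the summed level of 11 adipocyte markers was 2175 and 1553 CPM in OxtrTg against 241 and 323 in WT, with 10 of the 11 higher in both OxtrTg libraries. All 3 red cell markers were also higher in both OxtrTg libraries (222 and 127 against 73.4 and 26.9 CPM summed). The 8 oviduct epithelium markers summed to 52.1 CPM in OxtrTg replicate 3 against 1050 to 3096 CPM in the other libraries, the 4 smooth muscle markers to 1702 to 4041 CPM, and the 4 lymphocyte markers to 11.8 to 38.5 CPM. No marker of these lists was at 0 in all libraries. The part of this tissue makeup in the zinc finger values was not tested, and fewer cells of a type cannot be told apart from less RNA per cell.

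Zfp970 was nearly absent from OxtrTg ovaries and was among the better expressed genes of its cluster in WT. It had 2 and 1 counts in OxtrTg replicates 3 and 4, and 163 and 205 counts in WT replicates 5 and 6. These are 0.13 and 0.0668 CPM against 9.7 and 12.9 CPM, or 0.0605 and 0.0301 FPKM against 4.54 and 5.86 FPKM as deposited. Both OxtrTg libraries are at or below the limit that a count of 0 allows, and both WT libraries are far above it. Over both libraries of a genotype it had 3 counts against 368, so that WT had 114 times the scaled counts of OxtrTg (95% interval 38.7 to 555, counting error only). On average OxtrTg stood at 0.0982 ± 0.0444 CPM and WT at 11.3 ± 2.24 CPM (SD, n = 2 each), which is a log2 difference of -6.84. In WT it ranked 4 of 46 zinc finger and Gm genes by FPKM, with a mean of 5.2 FPKM beside 5.8 FPKM for Zfp971 and 5.64 FPKM for Zfp931. The gene spans 177156526 to 177169922 on the plus strand in the deposited table.

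The genes on either side of Zfp970 had the same pattern. Gm14418, the gene before it on the minus strand (177078917 to 177090113), had 0 and 0 counts in OxtrTg and 14 and 9 in WT. Gm14403, the gene after it on the plus strand (177190008 to 177201556), had 0 and 0 counts in OxtrTg and 48 and 58 in WT, which are 2.86 and 3.64 CPM. Gm14406, next on the minus strand (177260997 to 177270003), had 0 counts in both OxtrTg libraries and in WT replicate 5, and 3 in WT replicate 6. In Gm14418 and Gm14403 the genotypes did not overlap, while for Gm14406 WT itself was at the limit of detection and no fold can be given. Against a floor of 3 counts in each OxtrTg library, Gm14403 was at least 16.5-fold higher in WT and Gm14418 at least 3.54-fold. The 4 consecutive genes together had 2 and 1 counts in OxtrTg and 225 and 275 in WT, which is 155 times as many after scaling (95% interval 52.7 to 753, counting error only). Gm14406 adds 3 of these WT counts. Zfp970 and Gm14403 placed the stretch, so this interval and that of Zfp970 are no test of genotype. Both intervals leave out the spread between libraries.

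The WT libraries were alike in how these genes stood to each other. Zfp970 had 3.4 times the counts of Gm14403 in WT replicate 5 and 3.53 times in WT replicate 6. The 4 genes made up 12.4% and 13.3% of all counts of the 46 zinc finger and Gm genes in the WT libraries. By FPKM in WT, Gm14403 ranked 10 of 46 (1.75 and 2.17 FPKM) and Gm14418 ranked 21.

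**Figure D1:**
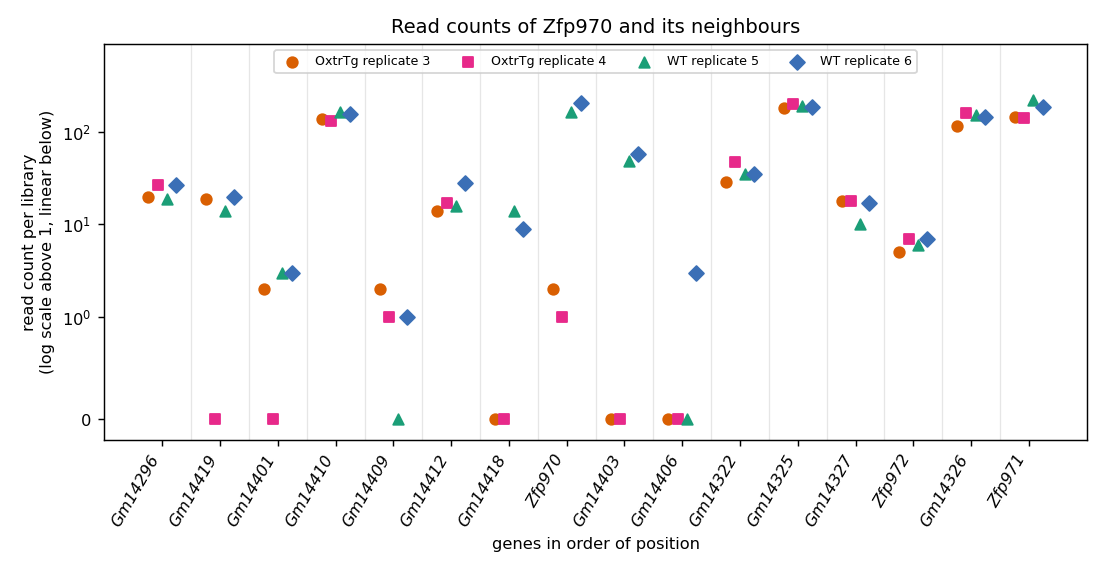
Read counts per library (vertical axis, logarithmic above 1 and linear below) of 16 consecutive genes of chromosome 2 in order of position (horizontal axis); circles and squares are OxtrTg replicates 3 and 4, triangles and diamonds WT replicates 5 and 6. From Gm14418 to Gm14406 the OxtrTg libraries sit at 0 to 2 counts, while Gm14412 before them and Gm14322 after them have 14 to 47 counts in every library.

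The pattern was seen from Gm14418 to Gm14403, and the first genes measured in every library beyond them were Gm14412 and Gm14322. Gm14406 lies between Gm14403 and Gm14322 and had too few WT counts to place the edge on that side. Gm14412, the nearest gene before Gm14418, had 14 and 17 counts in OxtrTg and 16 and 28 in WT, and the genotypes overlapped (1.02 ± 0.162 against 1.35 ± 0.57 CPM, SD, n = 2 each). Gm14322, the nearest after Gm14406, had 29 and 47 counts against 35 and 35, with OxtrTg replicate 4 the highest library and replicate 3 the lowest. The direction of both flanking genes depended on 1 library. The log2 ratio of Gm14412 went from -0.41 to 0.10 without WT replicate 6, and that of Gm14322 from 0.23 to -0.19 without OxtrTg replicate 4. The 4 genes span 191087 bases, and 384980 bases lie between the end of Gm14412 and the start of Gm14322 in the deposited table. In GENCODE M21 8 genes lie between these flanking genes. They are the 4 described here, all protein coding, and 4 pseudogenes not analysed here (Gm14404, Gm14414, Gm16363 and Gm14324).

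Further out, the well-expressed zinc finger genes were measured in every library. Gm14325, the gene with the highest level per length of the cluster (7.48 FPKM, mean of 4 libraries), had 183 and 200 counts in OxtrTg and 193 and 187 in WT, and after scaling both OxtrTg libraries were the higher ones (ratio 1.09). Zfp931, the last of the run, had 198 and 186 counts against 182 and 240, and the genotypes overlapped (12.6 ± 0.284 against 12.9 ± 3 CPM). Zfp971 had 146 and 143 counts against 221 and 185, lower in both OxtrTg libraries (9.5 ± 0.0668 against 12.4 ± 1.08 CPM, a ratio of 0.768). Gm14410, the last of the 4 with the highest mean FPKM over all libraries, had 140 and 131 counts against 166 and 157, again lower in both OxtrTg libraries, with a ratio of 0.903. Gm14326, between Gm14325 and Zfp971, had 115 and 159 counts against 153 and 146.

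Toward the other end of the run, Gm14399 had 121 and 102 counts in OxtrTg and 94 and 182 in WT. Gm14305 had 166 and 107 against 137 and 146, and Gm14295, the gene with the most fingers, 83 and 112 against 104 and 151. In each of these the range of 1 genotype overlaps that of the other. The spans of Gm14305 and Zfp973, introns included, overlap by 10758 bases on the same strand. In transcripts, 30.8% of the 100-base windows of Gm14305 and 26.8% of those of Zfp973 occur in no other gene. The assignment of their other reads is therefore uncertain.

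**Figure D2:**
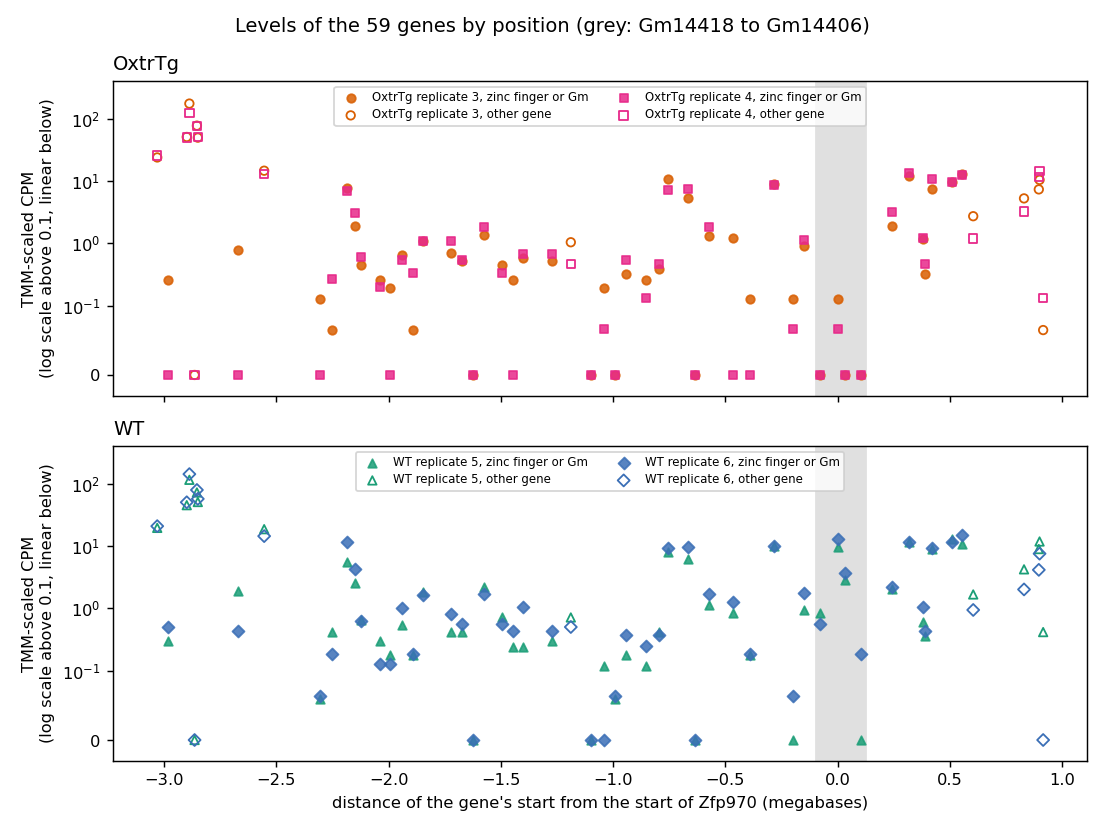
Level of each of the 59 genes in TMM-scaled CPM (vertical axis, logarithmic above 0.1 and linear below) by the distance of its start from that of Zfp970 in megabases, OxtrTg libraries above and WT libraries below; filled symbols are zinc finger and Gm genes, open symbols other genes, and the grey band spans Gm14418 to Gm14406. Inside the band the OxtrTg libraries sit at or near 0 and WT reaches 12.9 CPM, and points of both genotypes lie at like heights to either side of it.

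Summed over all 46 zinc finger and Gm genes, the OxtrTg libraries held 93.2 and 96.4 CPM and the WT libraries 108 and 129 CPM, a ratio of group means of 0.798 (94.8 ± 2.24 against 119 ± 14.9 CPM, SD, n = 2 each). Without the 4 consecutive genes the sums were 93.1 and 96.3 CPM against 94.8 and 112 CPM, a ratio of 0.915, and OxtrTg replicate 4 then lay above WT replicate 5. The 35 zinc finger and Gm genes before Gm14418 summed to 48.1 and 45.6 CPM against 47.2 and 60.8 CPM. The 7 after Gm14406 summed to 45 and 50.8 CPM against 47.6 and 51.3 CPM. In both stretches the genotypes overlapped. The 13 other genes summed to 416 and 370 CPM against 349 and 378 CPM, a ratio of 1.08, also with overlap.

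Among the 17 zinc finger and Gm genes outside the 4 that had at least 50 counts over all libraries, the ratio of OxtrTg to WT ran from 0.332 (Zfp831) to 1.42 (Gm14327), with a median of 0.861. Ratios between replicates of a genotype covered a wider range, but each sets 1 library against 1 rather than means of 2 libraries. The ranges are therefore not like for like and do not place the genotype differences within the spread of replicates. WT replicate 6 against WT replicate 5 ran from 0.231 (Zfp831) to 2.04 (Gm14399) with a median of 1.12, and OxtrTg replicate 4 against replicate 3 from 0 (Zfp831) to 1.67 (Gm14322) with a median of 1.03. Zfp831, a zinc finger gene that lies before the run and shares no 100-base window with another gene, had 12, 0, 32 and 7 counts.

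Most of the cluster was weakly expressed. Of the 46 zinc finger and Gm genes, 3 (Gm2007, Gm11009 and Gm14408) were at 0 in all libraries and 10, these included, had under 10 counts in total. Those with at least 10 counts had a mean level of 0.0573 to 7.48 FPKM with a median of 0.385, and 10 reached 1 FPKM. The 13 other genes ran up to 96.3 FPKM with a median of 2.43 among those with at least 10 counts.

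Whether both OxtrTg libraries lay on the same side of both WT libraries was counted in the 48 members with at least 10 counts, of which 36 are zinc finger or Gm genes. The OxtrTg libraries were both lower in 10 members, and over all genes of the table with at least 10 counts this share was 11.8%. Those 10 were Gm20721, Gm14391, Zfp965, Gm6710, Gm14410, Gm14418, Zfp970, Gm14403 and Zfp971 among the zinc finger and Gm genes and Prelid3b among the others. The OxtrTg libraries were both higher in 4 members (Gm2004, Gm14325, Gm14327 and Gnas), beside 14.8% over all genes. Zfp965 had 17 and 16 counts in OxtrTg and 31 and 26 in WT, and Gm6710 had 7 and 5 against 12 and 9. Gm14391 had 7 and 9 counts against 11 and 10, so these low genes differ by few reads. Outside the 4 consecutive genes, no zinc finger or Gm gene with at least 20 counts had both non-overlapping genotypes and a ratio of 2 or more. The median log2 difference of edgeR's fit was -0.25 over the 22 zinc finger and Gm genes that passed its filter on low counts, 0.30 over the 11 others that did and 0.00 over all genes that did. Zfp970 and Gm14403 passed that filter through their WT libraries.

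The tests across the whole table add little to these counts. Of the members, 33 were tested, 22 of them zinc finger or Gm genes. EdgeR's quasi-likelihood test called 0 of all 15311 genes tested (0%), with 393 at an unadjusted p under 0.05, of which 2 were members. Limma-voom also called 0. DESeq2 called 3 genes lower in OxtrTg (0.0196% of those tested), and 2 of them were Zfp970 and Gm14403. It called 66 genes higher (0.431%), none of them members. The members were chosen from this contrast, so these calls are no separate evidence.

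A different set of members was at 0 in OxtrTg replicate 4 alone. With no minimum on the other libraries there were 7 such genes: Gm20721, Zfp831, Gm14444, Gm4631, Zfp966, Gm14419 and Gm14401. The share of all genes under this rule was not computed, so the 7 cannot be called many or few. Several had few counts in any library, such as Gm14444 with 2, 0, 1 and 1, where a 0 carries little. Gm14419 had 19 counts in OxtrTg replicate 3, 0 in OxtrTg replicate 4, and 14 and 20 in the WT libraries. Its neighbour Gm14401 had 2, 0, 3 and 3 counts, and Zfp966 had 4, 0, 4 and 7. No member was at 0 in OxtrTg replicate 3 alone, 1 was in WT replicate 5 alone (Gm14409) and 2 were in WT replicate 6 alone (Zfp968-ps and Cdh26). A stricter rule asked for at least 20 counts over the other libraries but allowed a 0 in those too. Of the 21958 genes of the table, 30 were at 0 in OxtrTg replicate 4 under it, and 4 of these 30 were members. They were Zfp831 and Gm14419 of the 7, and Gm14418 and Gm14403, which were at 0 in OxtrTg replicate 3 as well. Gm14410, the gene just after Gm14401, had 131 counts in OxtrTg replicate 4.

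How far a read can be assigned to 1 member was gauged by the share of a gene's 100-base windows, over all its GENCODE M21 transcripts, that occur in no other gene's transcripts. This share was 95.1% for Gm14403, 82.6% for Zfp970, 61.9% for Gm14418 and 12.1% for Gm14406. It was 97.2% for Gm14412 but 27.2% for Gm14322, most of whose windows are also in Gm14418. With 50-base windows the shares were 63.9% for Gm14403, 50.3% for Zfp970, 44.3% for Gm14418 and 6.72% for Gm14406. The counts of Gm14406 and Gm14322 therefore stand on few bases of their own, and those of Zfp970 and Gm14403 on most of theirs.

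Across the 46 zinc finger and Gm genes, those with almost no sequence of their own had the lowest counts. The 12 genes with under 5% unique windows had a median of 18 counts over all libraries and reached at most 112 (Gm14288), with a median level of 0.093 FPKM. The 19 genes with 5% to 50% had a median of 53 counts and up to 763 (Gm14325), with 0.223 FPKM. The 15 genes with over 50% had a median of 51 counts and up to 806 (Zfp931), with 0.458 FPKM. How the deposited counts treat reads that fit several genes is not given in the sources used, so low counts of near-identical members are uncertain.

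**Figure D3:**
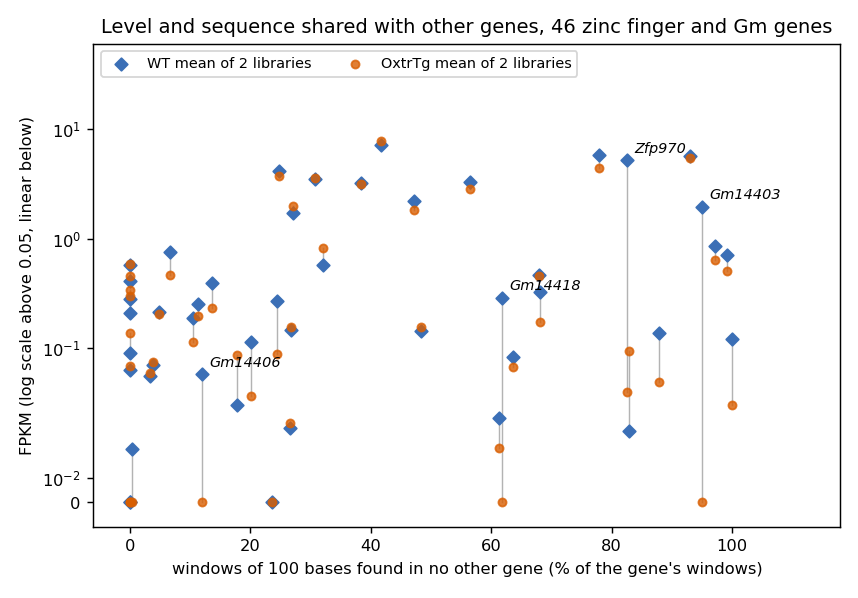
Mean FPKM per genotype (vertical axis, logarithmic above 0.05 and linear below) of the 46 zinc finger and Gm genes against the percentage of their 100-base windows found in no other gene; diamonds are WT, circles OxtrTg (means of 2 libraries), joined by a line for each gene. The longest lines belong to Zfp970 at 82.6% and Gm14403 at 95.1% unique windows.

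The 13 other genes of the stretch lie at its ends, except 2210418O10Rik. Gnas, which encodes the stimulatory G protein alpha subunit and is imprinted in several tissues, had 23.8 and 25.7 CPM in OxtrTg against 19.5 and 20.8 CPM in WT. Both OxtrTg libraries were higher, with a ratio of 1.23 (24.8 ± 1.33 against 20.1 ± 0.985 CPM). Gm20721 overlaps Gnas on the opposite strand by 16394 bases and shares 75.5% of its 100-base windows with it. The strand setting of the counting was not stated, so its 4, 0, 5 and 8 counts cannot be told apart from Gnas reads. The counts of Gnas are uncertain for the same reason, since reads in the overlap may have been given to either gene or left out. The effect on the Gnas ratio was not tested.

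Ctsz, which encodes the lysosomal protease cathepsin Z, had the highest level per length of all members, 96.3 FPKM, with 2685 and 1864 counts in OxtrTg and 1932 and 2256 in WT. Atp5e, a subunit of the mitochondrial ATP synthase, had 1189 and 1134 counts against 1213 and 1260. Nelfcd, a subunit of the factor that pauses RNA polymerase II, had 782 and 744 against 759 and 800. After scaling, the genotypes overlapped in each of these. Prelid3b, a protein of the PRELI family, had 765 and 753 counts against 852 and 906, and was lower in both OxtrTg libraries by a ratio of 0.928 (49.9 ± 0.526 against 53.8 ± 4.39 CPM).

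Among the 5 genes after the run, none separated the genotypes. Sycp2, which encodes a protein of the synaptonemal complex of meiotic chromosomes, had 81 and 48 counts in OxtrTg and 71 and 32 in WT. Ppp1r3d, a regulatory subunit that brings protein phosphatase 1 to glycogen, had 113 and 172 counts against 150 and 66. Fam217b, its neighbour, had 161 and 217 against 198 and 120. In Ppp1r3d and Fam217b OxtrTg replicate 4 was the highest and WT replicate 6 the lowest library. Phactr3, a phosphatase and actin regulator, had 42, 18, 28 and 15 counts. Edn3, which encodes the peptide endothelin 3 and lies before the run, had 225 and 192 counts against 313 and 230, which overlap after scaling, and 2210418O10Rik had 16, 7, 12 and 8. The latter is set among the other genes by its name and description. All its 100-base windows also occur in Gm14296, so its reads cannot be told apart from those of that gene. Its promoter was 95.4% identical to that of Zfp970 over 95% of the window. Before the run, Tubb1, a beta tubulin of platelets, was at 0 throughout.

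Zinc finger genes elsewhere in the genome showed no like near-absence. The table holds 465 of them outside the stretch, of which 449 had at least 10 counts. Both OxtrTg libraries were lower in 67 of these and higher in 54, and the median log2 difference was 0.00. Over all genes with at least 10 counts the shares were 11.8% lower and 14.8% higher. Of 432 tested, edgeR called 0, with 0 at an unadjusted p under 0.05, and DESeq2 called 0. None of the 465 had at most 3 counts in 1 genotype and at least 20 in the other. The 23 on chromosome 2 outside the stretch had a median log2 difference of 0.00 as well.

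Trim28 and Setdb1, the partners through which KRAB zinc finger proteins act, overlapped between the genotypes. Trim28 averaged 313 ± 38.6 CPM in the OxtrTg libraries and 302 ± 14 CPM in the WT libraries (SD, n = 2 each), a log2 difference of 0.05. Setdb1 averaged 108 ± 17.2 against 101 ± 1.62 CPM, a log2 difference of 0.09. The list tested held 33 genes, co-repressors and also the zinc finger genes Zfp57, Zfp445 and Zfp809. These zinc finger genes are counted among those elsewhere in the genome as well. Neither edgeR nor DESeq2 called any of the 33, and edgeR gave 0 at an unadjusted p under 0.05. Both OxtrTg libraries were lower in 5 of the 33 and higher in 1 (Zfp445), with a median log2 difference of -0.02. Over all genes with at least 10 counts these shares were 11.8% and 14.8%.

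Near-absence in a single genotype was rare over the whole table. Of the 15221 genes with at least 20 counts over both WT libraries, 19 had at most 3 counts over both OxtrTg libraries (0.125%). Among the members 36 had at least 20 WT counts, and 3 of them were on this list, namely Gm14418, Zfp970 and Gm14403. The stretch was chosen because Zfp970 and Gm14403 were low in OxtrTg, so their place on the list is no separate evidence. In the other direction 21 genes had at most 3 counts in WT and at least 20 in OxtrTg. Of these 40 genes, the 3 members were the only ones whose next gene in the table was on the list too. Zfp970 and Gm14403 lie next to each other and placed the stretch, so this is no separate evidence either. The list also grouped elsewhere under a looser rule. Mup6, Mup9, Mup10, Mup22 and Mup17 of a cluster on chromosome 4 were on it, higher in OxtrTg. Other Mup genes lie between them, such as Mup1 between Mup9 and Mup10, which was at 0 in all libraries.

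With a higher bound of 100 counts 6 genes remained. Besides Zfp970 and Gm14403, Cuzd1 on chromosome 7 had 191 and 235 counts in OxtrTg and 0 and 0 in WT, the reverse order. The other 3 rested on 1 library. Onecut2 had 1455 of its 1461 WT counts in replicate 6, Gm8113 had 171 of 172 there, and Serpina1e had 1023 of its 1028 OxtrTg counts in replicate 4. Zfp970, Gm14403 and Cuzd1 were thus the only genes of the 6 with at least 20 counts in both libraries of the higher genotype.

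**Figure D4:**
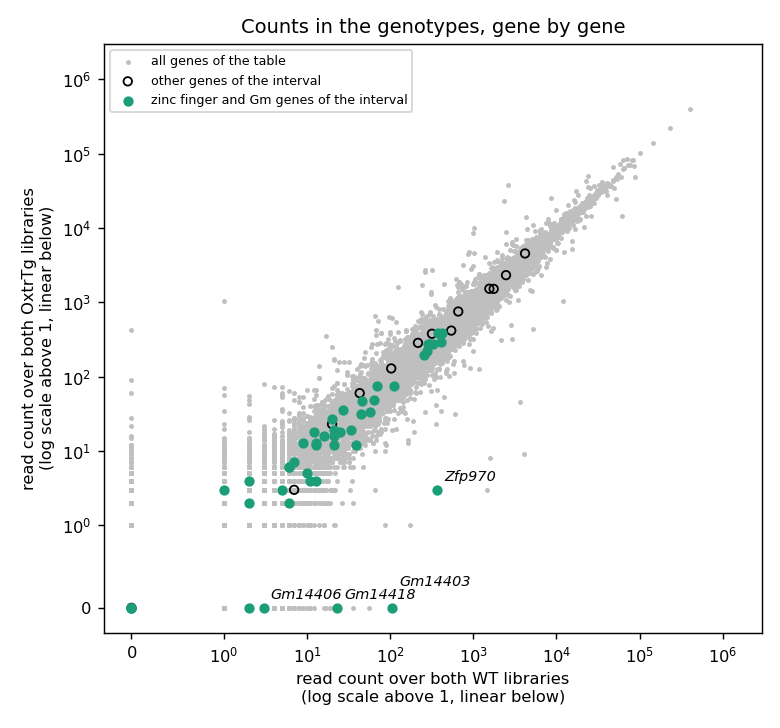
Read counts over both WT libraries (horizontal axis) and over both OxtrTg libraries (vertical axis) for every gene of the table (grey), both axes logarithmic above 1 and linear below; filled circles are the zinc finger and Gm genes of the stretch and open circles its other genes. Zfp970 (368 against 3) and Gm14403 (106 against 0) lie far below the band that the other members follow.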

How the data were processed

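RNA from 4 mouse ovary libraries was measured. Per the file headers, the deposited table gives for each gene a read count per library, raw and not normalised, and an FPKM value, which the authors computed per gene length and library total. Per the submitters' processing notes the build is mm10. The aligner, the counting program and its strand setting were not given in the sources used. None of the 59 members starts at the same position in GENCODE M21 (GRCm38), though their order is the same, so gene positions are printed as deposited, without a named build. Promoter positions are those of RefSeq on GRCm38.p6.

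Groups and replicate numbers came from the sample titles. The labels do not say whether replicates are separate animals, so the spread between them may be technical. Counts were scaled by TMM (edgeR 4.0.16, R 4.3.3) to CPM. EdgeR's quasi-likelihood test ran over all genes kept by filterByExpr (minimum count 10), with Benjamini-Hochberg adjustment and a threshold of 0.05. The fit had a common dispersion of 0.104 and 2 residual degrees of freedom. DESeq2 1.42.0 and limma-voom (limma 3.58.1) were run beside it. EdgeR and DESeq2 were tested on simulated counts. Means are given with the SD, intervals are exact conditional binomial intervals, and ratios are of group means with no pseudocount. Finger patterns, windows and identities were computed with Biopython 1.88.

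The members, the lists and the tests were chosen with earlier results of these data known. Values are given for zinc finger and Gm members with at least 20 counts, non-overlapping genotypes and a ratio of at least 2, for the neighbours of Zfp970, Gm14403 and Gnas, for the 4 of each kind with the highest FPKM, for Trim28 and Setdb1, and for genes with at most 3 counts in 1 genotype and at least 100 in the other. Other genes are named after their values were seen.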

Additional observations from a re-analysis of the deposited data

How the results depend on the processing

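No paired analysis was possible because the genotypes share no replicate numbers (3 and 4 against 5 and 6). The count of all genes called was 0 in edgeR under TMM, DESeq2 size factors, upper quartile, total counts alone and no filter on low counts, and in limma-voom. DESeq2 called 66 higher and 3 lower. With each library left out in turn edgeR called 0 to 7 genes higher and 0 to 58 lower, the highest numbers without OxtrTg replicate 4, and 0 members in each. A genotype left with a single library was assumed to vary like the other. DESeq2 called 2 members lower, and 1 to 2 with each library left out, an alternative added after the data were seen. The summed ratio of the zinc finger and Gm genes was 0.798 and ran from 0.733 to 0.876 with a library left out. It was 0.908 without Zfp970 and Gm14403 and, added after the data were seen, 0.915 without the 4 consecutive genes, where fewer genes are summed. The number of members whose genotypes do not overlap was the same (10 lower and 4 higher) under the other scalings and in FPKM. For the 13 single members followed, 0 of 140 values moved beyond the spread between libraries, and 5 changed sign with a library left out. These were Gm14412 (-0.41 to 0.10 without WT replicate 6), Gm14322 (0.23 to -0.19 without OxtrTg replicate 4), Ctsz (0.22 to -0.04 without OxtrTg replicate 3), Zfp931 (-0.04 to 0.22 without WT replicate 6) and Atp5e (0.01 to -0.05 without WT replicate 5), as log2 ratios. The class by RefSeq protein was not run. With 2 libraries a genotype, and counts that near-identical genes may share, small differences in this cluster were not detectable.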

Other observations

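Major urinary protein genes of chromosome 4, another cluster of near-identical copies, were looked at after their values were seen. The 22 Mup genes of the table summed to 198 and 111 counts in OxtrTg and 7 and 7 in WT. Of the 8 with at least 10 counts, 7 were higher in both OxtrTg libraries, beside 14.8% over all genes with at least 10 counts. How far these 7 near-identical genes share reads was not tested, so they cannot be taken as 7 separate observations. Mup9 had 61 and 30 counts in OxtrTg and 0 and 0 in WT, and Mup17 had 36 and 19 against 2 and 0. Their direction is the reverse of that of Zfp970.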
